A study of Homo sapiens with 6 samples.

Results

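Mitochondrial ribosomal proteins were followed as the genes of the deposited table whose symbol is MRPL or MRPS followed by a digit. The rule found 78 of the 20289 genes, 49 named MRPL, for the large subunit, and 29 named MRPS, for the small subunit. RNA came from SW480, an established human colon adenocarcinoma line, in 3 control libraries, LV-NC, labelled wild type, and 3 libraries, MUCP1-FLAG, labelled as overexpressing the FLAG-tagged microprotein MUCP1. LV-NC libraries are called the controls below. The labels name the replicates biological but give no promoter, clone, culture day or batch, so a p-value here measures only the spread between these libraries. The table has no MUCP1 row, and the overexpression itself could not be checked.

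The mitochondrial ribosome stands in the matrix of the organelle and translates the few mRNAs of mitochondrial DNA, which encode core subunits of the respiratory chain and ATP synthase. Its rRNA is made inside the organelle, but all of its proteins are encoded in the nucleus, made in the cytosol and imported. Some of these proteins have a counterpart in bacterial ribosomes, others occur only in mitochondria, and the systematic names mark the first with u or b and the second with m. Setting MUCP1-FLAG cells against the controls addresses how raised MUCP1, a microprotein that the series title ties to succinate transport and glutamine metabolism, alters gene expression.

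The depth of the libraries was 17333329 to 23282604 counts, and no member had fewer than 139 counts in any of them. Libraries of a group were not copies of each other (chi-square per degree of freedom 2.57 to 8.26 between pairs). Of 10 colon epithelial markers 6 exceeded 1 FPKM (fragment counts scaled by transcript length and library size) in at least 1 library, led by KRT8 and KRT18, while CDX1 and LGALS4 were listed at 0 in all 6 libraries, and the summed level of the 10, nearly all of it KRT8 and KRT18, was 3585 to 3907 FPKM in the controls and 3783 to 3883 FPKM in MUCP1-FLAG. Of the 6 markers, 3 were called lower by edgeR: CDH1, an epithelial adhesion protein, at 6.56 to 7.95 against 3.30 to 3.61 FPKM (log2 fold change −1.06 ± 0.08, adjusted p 3.26e-09), EPCAM at 161 to 173 against 128 to 133 FPKM (−0.33 ± 0.05, 3.51e-05), and VIL1 (−0.40 ± 0.10, 0.00731). The FPKM of VIL1 overlapped between the groups, at 3.49 to 5.85 in the controls and 2.40 to 4.78 in MUCP1-FLAG. Its counts scaled to library size lay apart. The part of these 3 markers in the results on the ribosome was not tested. None of 25 markers of fibroblasts, blood, endothelium or HEK293 cells exceeded 1 FPKM in any library.

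Most mRNAs of the mitochondrial ribosome differed little between MUCP1-FLAG cells and the controls. MRPS6, MRPL49, MRPL37 and MRPL23 rose, and no member was called lower by edgeR's quasi-likelihood test at a Benjamini-Hochberg adjusted p under 0.05 over all 12920 tested genes. All 78 genes passed the low-count filter. The 4 called members are 5.13% of the 78, against a background of 16.1% of all tested genes called in either direction, 8.35% higher and 7.71% lower. Among 9023 other tested genes with a mean level in the members' range, 9.34 to 323 CPM (counts scaled to library size by TMM), the share was 17.5%. At an unadjusted p under 0.05 there were 11 members higher and 6 lower, 21.8% in all, where the background is 29.4% of tested genes, 14.7% in each direction. DESeq2 and limma also called 0 members lower. The authors' deposited adjusted p was under 0.05 for 3 of the 78, against 7.5% of the table. Leaving out LV-NC 2, MUCP1-FLAG 2 or MUCP1-FLAG 3 left 2 members called higher, and leaving out LV-NC 1 gave 6 higher and 2 lower. In bulk RNA, a change in transcripts per cell cannot be told apart from a change in the mix of cells.

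Over the 78 genes the log2 fold change had a median of 0.02, beside −0.00419 over all tested genes, with 44 members positive and 34 negative. For 76 of the 78 the estimated change was under 1.2-fold in either direction, the exceptions being MRPS6 and MRPL49. The same held for 10307 of all 12920 tested genes and for 8018 of the 9023 others in the members' CPM range. The 95% interval of the change lay within 1.25-fold for 68 members, or 87.2%, against 55.5% of all tested genes and 72.7% of the other genes in the same CPM range. The limits of 1.2 and 1.25 were chosen after the values were seen. Of the members not called, 7 had an interval reaching past 1.25-fold: MRPL55, MRPL20, MRPL33, MRPL53, MRPS21, MRPS28 and MRPS36. Groups did not overlap for 14 members, 9 of them higher and 5 lower in MUCP1-FLAG, where the background is 33.1% of tested genes in either direction, 16.6% higher and 16.4% lower.

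**Figure D1:**
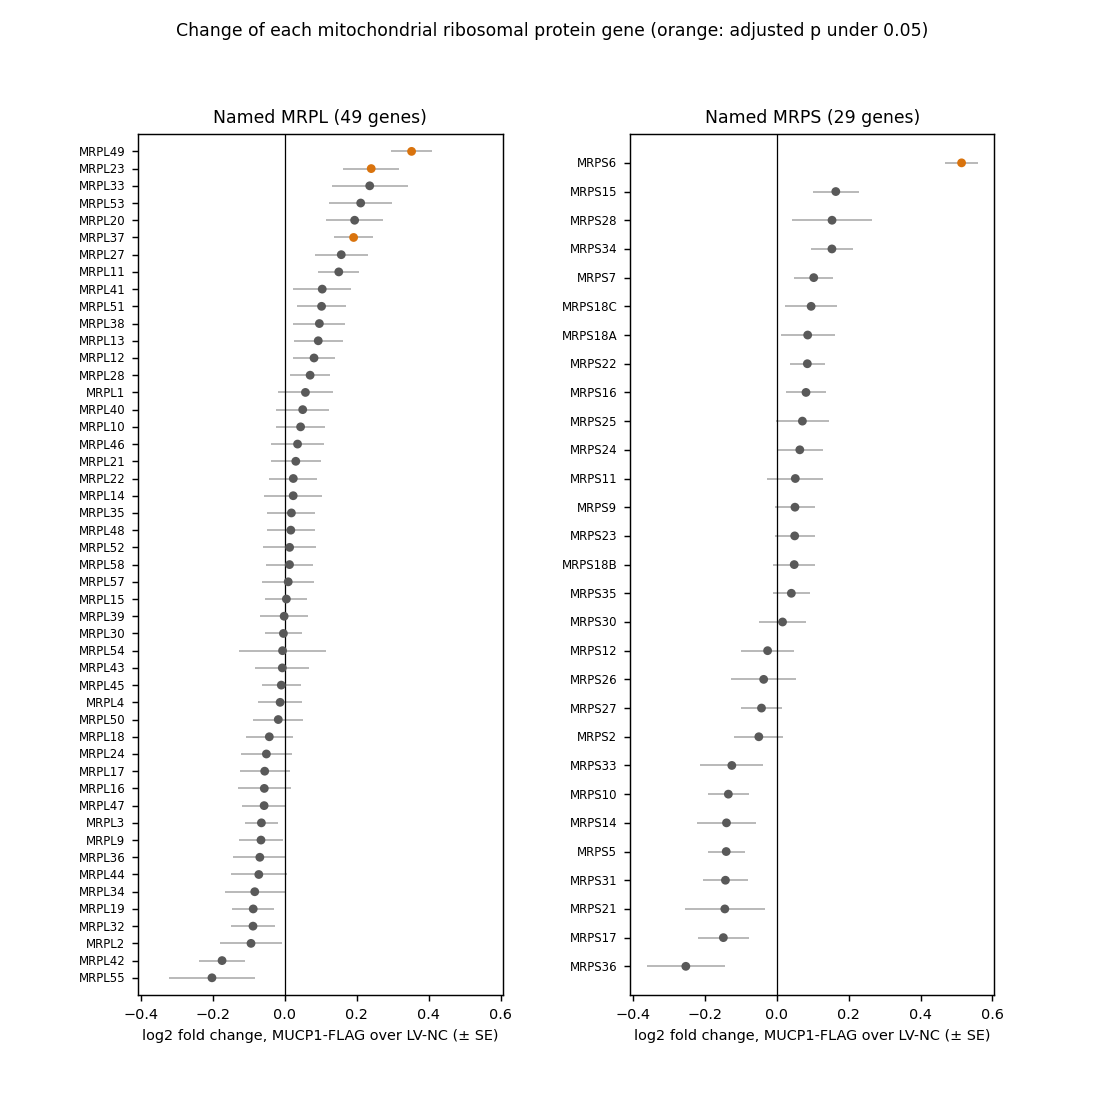
Log2 fold change of MUCP1-FLAG over LV-NC (horizontal axis) with its standard error for each of the 49 MRPL genes (left) and 29 MRPS genes (right), in order of size. Orange points are the 4 genes with an edgeR adjusted p under 0.05; the others crowd around 0, from −0.25 for MRPS36 to 0.24 for MRPL33.

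MRPS6, the counterpart of bacterial protein S6 on the platform of the small subunit, changed most. It stood at 175, 170 and 169 CPM in the controls and at 239, 245 and 250 CPM in MUCP1-FLAG. The groups did not overlap, and the gap was many times the spread within either. The means were 171 ± 3.40 and 245 ± 5.35 CPM (SD, n = 3 per group), a log2 fold change of 0.51 ± 0.05 (SE), or 1.43-fold (edgeR adjusted p 6.02e-08). In the authors' deposited table its log2 fold change was 0.50, with an adjusted p of 2.6e-25.

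The locus of MRPS6 (ENSG00000243927) lies on chromosome 21 at 34073224 to 34143034 on GRCh38 (+ strand, GENCODE 29), and it encloses that of SLC5A3, a sodium-dependent carrier of myo-inositol on the same strand. An exon of each overlaps the other over 176 bases. Reads from that stretch could have been counted for either gene or for neither. SLC5A3 had 374, 377 and 509 CPM in the controls and 589, 536 and 550 CPM in MUCP1-FLAG. It too was higher in all 3 MUCP1-FLAG libraries but was not called (0.41 ± 0.14 on the log2 scale, with an adjusted p of 0.130 by edgeR). LV-NC 3, the control highest in SLC5A3, was the control lowest in MRPS6. The part of SLC5A3 reads in the MRPS6 result was not tested.

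The bases before the RefSeq start of MRPS6 are shown because this gene has the largest change of the 78. The RefSeq window on GRCh38.p14 had a GC content of 82.0%, against a median of 59.7% over the members with a window. The stretch outside annotated UTRs, chr21:34073328-34073522 (+ strand), ends 56 bases before that start, which lies downstream of the GENCODE start of the locus given above, and its capitals mark GGGCGG or its reverse complement CCGCCC, known as the GC box.
MRPS6: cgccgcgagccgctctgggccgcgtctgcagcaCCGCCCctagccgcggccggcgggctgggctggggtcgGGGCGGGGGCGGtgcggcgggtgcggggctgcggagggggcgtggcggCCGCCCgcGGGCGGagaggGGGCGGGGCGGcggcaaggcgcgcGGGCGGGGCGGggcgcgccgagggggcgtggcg
The stretch held 9 such matches, overlapping ones counted. This motif was chosen after the sequence was seen. It occurred in the windows of 61.4% of the members and 78.4% of tested genes with a window.

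MRPL49, a mitochondria-specific protein of the large subunit, was the second member by size of change. It had 97.8, 94.5 and 84.4 CPM in the controls and 114, 119 and 120 CPM in MUCP1-FLAG. Every MUCP1-FLAG library lay above every control. The means were 92.2 ± 6.99 and 118 ± 3.23 CPM (SD, n = 3 per group), a log2 fold change of 0.35 ± 0.06, or 1.28-fold (edgeR adjusted p 0.000187). The authors' deposited table gave 0.35, with an adjusted p of 1.96e-06. MRPL49 (ENSG00000149792, chromosome 11, 65122183 to 65127371, + strand) overlaps 2 genes on the opposite strand, FAU, which encodes a ubiquitin-like fusion to a ribosomal protein, and SYVN1, an E3 ubiquitin ligase of the endoplasmic reticulum. The longest shared exon stretch was 158 bases with each. Neither neighbour was called: FAU had a log2 fold change of 0.00227 ± 0.06 and SYVN1 of −0.00632 ± 0.06 (edgeR adjusted p 0.985 and 0.962).

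MRPL37 is another mitochondria-specific protein of the large subunit. It had 121, 114 and 106 CPM in the controls and 129, 130 and 130 CPM in MUCP1-FLAG. The MUCP1-FLAG libraries were nearly equal, and the spread lay in the controls. The log2 fold change was 0.19 ± 0.05, or 1.14-fold (edgeR adjusted p 0.0175). The authors' deposited table had an adjusted p of 0.0167. The call was lost when LV-NC 2 was left out (adjusted p 0.0645) and when MUCP1-FLAG 1, 2 or 3 was (0.0574, 0.0650 and 0.0782), and on log2(FPKM + 1) by limma (0.0673). The gene (ENSG00000116221) lies on chromosome 1 at 54184041 to 54225464 (+ strand).

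The bases directly before the RefSeq start of MRPL37 are printed beside those of MRPS6 as a second called member. This start too lies within the GENCODE locus. The GC content of the whole window was 57.0%, against 82.0% for MRPS6. The 93 bases outside annotated UTRs, chr1:54200074-54200166 (+ strand, GRCh38.p14), had 53.8%, against 88.2% in the longer MRPS6 stretch of 195 bases, and held no GC box.
MRPL37: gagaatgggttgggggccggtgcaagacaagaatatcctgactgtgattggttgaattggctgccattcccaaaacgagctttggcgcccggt

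MRPL23, at the exit of the tunnel through which the new peptide leaves, was the least abundant of the 4. It had 24.1, 24.4 and 21.5 CPM in the controls and 26.7, 28.6 and 27.4 CPM in MUCP1-FLAG. The gap between the groups was smaller than the range of the controls. The log2 fold change was 0.24 ± 0.08, or 1.18-fold (edgeR adjusted p 0.0385). The authors' deposited table did not call it, at an adjusted p of 0.116, and neither did DESeq2 (adjusted p 0.0919). The call also ended when LV-NC 2 or 3 was left out (0.0636 and 0.0993) and when MUCP1-FLAG 1, 2 or 3 was (0.0654, 0.152 and 0.106). MRPL23 (ENSG00000214026) lies on chromosome 11 at 1947278 to 1984522 (+ strand).

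**Figure D2:**
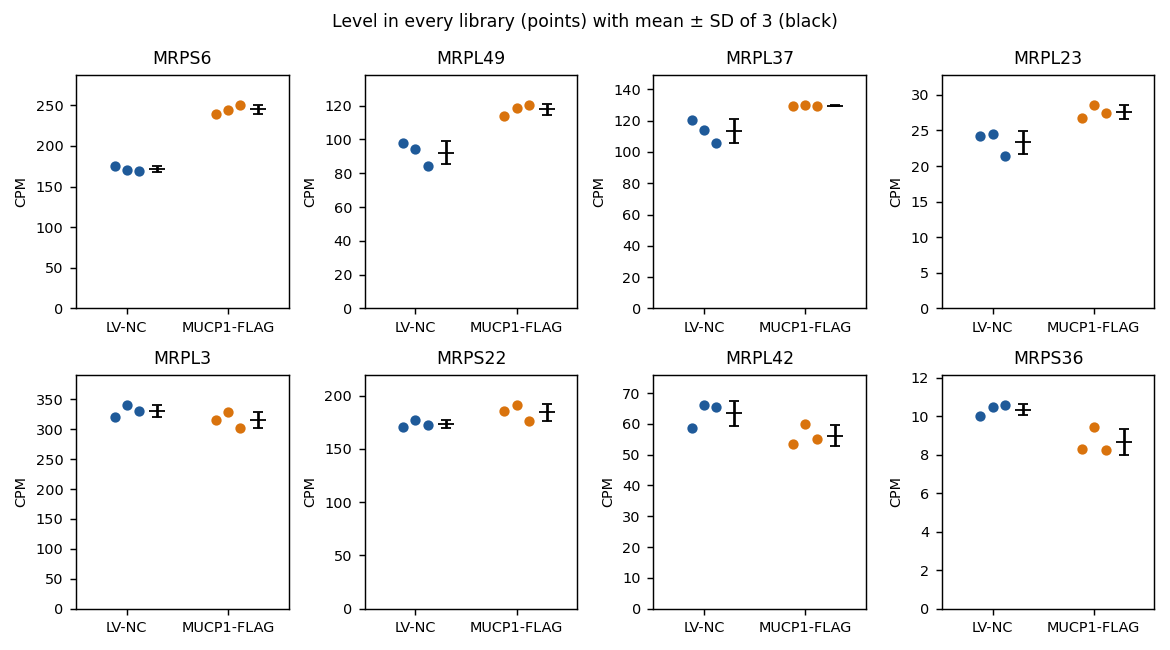
CPM (vertical axes, from 0) of 8 members in each of the 3 LV-NC (blue) and 3 MUCP1-FLAG (orange) libraries, with mean ± SD in black. The groups part in MRPS6, MRPL49, MRPL37 and MRPL23, overlap in MRPL3, MRPS22 and MRPL42, and part the other way in MRPS36, which was not called.

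Large and small subunit were also described apart, and the difference between them was not tested. Of the 49 MRPL genes 3 were called higher and 0 lower, with a median log2 fold change of 0.01 and a range from −0.20 to 0.35. Among the 29 MRPS genes 1 was called higher and 0 lower, with a median of 0.05 and a range from −0.25 to 0.51. Of all tested genes 8.35% were called higher and 7.71% lower. In MRPL genes 8 were higher and 1 lower at an unadjusted p under 0.05, and in MRPS genes 3 and 5, beside 14.7% of all tested genes in each direction. Groups did not overlap for 5 MRPL genes higher and 0 lower, and for 4 MRPS genes higher and 5 lower. The background was 16.6% of all tested genes higher and 16.4% lower. DESeq2 and limma called 0 lower in both. Symbols do not always follow position: MRPS18A and MRPS30 sit in the large subunit of the assembled ribosome. MRPS36, which RefSeq lists as KGD4, is known as a component of the 2-oxoglutarate dehydrogenase complex of the TCA cycle. With genes placed by position the calls were again 3 higher among 51 large-subunit genes and 1 among 26 small-subunit genes.

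Summed over genes, the MRPL transcripts took 2691, 2696 and 2599 CPM in the controls and 2640, 2813 and 2683 CPM in MUCP1-FLAG. These ranges overlap. The MRPS transcripts took 1844, 1823 and 1761 CPM in the controls and 1871, 1946 and 1894 CPM in MUCP1-FLAG. Here the groups lie apart. Without MRPS6 the MRPS sums were 1669, 1652 and 1593 CPM against 1631, 1701 and 1643 CPM, and the groups overlap. The summed level of MRPS per MRPL was 0.680 ± 0.00473 in LV-NC and 0.702 ± 0.00907 in MUCP1-FLAG (SD, n = 3 per group), and 0.615 ± 0.00404 and 0.612 ± 0.00656 without MRPS6. Sums over chosen members were not tested. Transcripts of mitochondrial DNA took 6.10 to 6.61% of counts in LV-NC and 5.91 to 6.24% in MUCP1-FLAG.

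**Figure D3:**
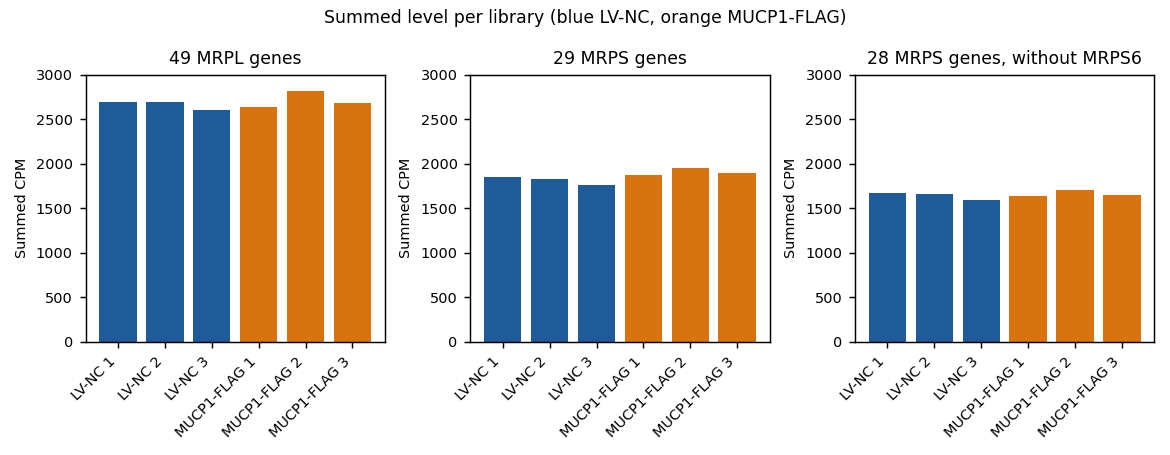
Summed CPM (vertical axes, from 0) per library for the 49 MRPL genes, the 29 MRPS genes and the 28 MRPS genes other than MRPS6, LV-NC in blue and MUCP1-FLAG in orange. The bars of both groups reach similar heights, and the small lead of MUCP1-FLAG in the middle panel is absent from the right one.

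By systematic name, 30 of the 49 MRPL proteins have a bacterial counterpart and 19 are marked m. MRPS18A and MRPS30 are marked m too, which makes it 21 in the large subunit by position. The 30 had 1 call, MRPL23, and a median of 0.000717 on the log2 scale. The 19 had 2 calls, MRPL49 and MRPL37, and a median of 0.01. Among MRPS proteins that sit in the small subunit the 16 with a bacterial counterpart had 1 call, MRPS6, and a median of 0.05. None of the 10 marked m was called by edgeR, DESeq2 or limma (2 at an unadjusted p under 0.05 by edgeR), with a median of 0.05. Beside the calls in these 4 groups, 16.1% of all tested genes were called, and 29.4% had an unadjusted p under 0.05 by edgeR. The lowest p among the 10 marked m in the small subunit belonged to MRPS34 and MRPS31. MRPS34 had 70.0, 64.8 and 63.3 CPM in the controls and 71.8, 72.9 and 75.5 CPM in MUCP1-FLAG (log2 fold change 0.15 ± 0.06, edgeR adjusted p 0.0755, or 0.0186 with LV-NC 1 left out). MRPS31 had 46.0, 44.6 and 46.0 CPM against 41.1, 41.0 and 41.7 CPM (−0.14 ± 0.06, edgeR adjusted p 0.124). Both were parted between the groups, in opposite directions, yet neither passed the test.

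Some members that work at the same place of the ribosome were also compared. Places were assigned to only part of the 78, so each list may lack proteins of its place, and the ranges cover only the genes named. Where factors dock, at the stalk and its base, MRPL12 had a log2 fold change of 0.08 ± 0.06, MRPL10 of 0.04 ± 0.07 and MRPL11 of 0.15 ± 0.06, the last with an edgeR adjusted p of 0.0812. None of the 3 was called by edgeR, DESeq2 or limma, and 1 had an unadjusted p under 0.05 by edgeR. The background is 16.1% of all tested genes called and 29.4% with such an unadjusted p. Near the peptidyl transferase centre, where peptide bonds form, MRPL2, MRPL3, MRPL16 and MRPL27 ran from −0.09 to 0.16. At the tunnel exit MRPL22, MRPL24 and MRPL45 lay between −0.05 and 0.02 beside the called MRPL23. The central protuberance, at the top of the large subunit, was represented by MRPL38, MRPL40, MRPL46 and MRPL48, from 0.02 to 0.10. On the platform MRPS11, MRPS15, MRPS18C and MRPS21 ran from −0.14 to 0.16 beside the called MRPS6. The head proteins MRPS7, MRPS9, MRPS10 and MRPS14 ran from −0.14 to 0.10. So in each of these places most of the proteins named showed changes of less than 1.2-fold, also beside a called one. Changes of that size were also found for 10307 of all 12920 tested genes.

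The 3 MRPS18 genes encode related proteins of different position. MRPS18A is found in the large subunit, MRPS18B and MRPS18C in the small one. Although they are related, MRPS18C is marked b (bS18m), and MRPS18A and MRPS18B are marked m (mL66 and mS40). The log2 fold changes of MRPS18A, MRPS18B and MRPS18C were 0.09 ± 0.08, 0.05 ± 0.06 and 0.10 ± 0.07, with an edgeR adjusted p of 0.485, 0.626 and 0.412. None of the 3 was called, beside 16.1% of all tested genes. MRPS30 had 53.9, 47.6 and 47.6 CPM in the controls and 51.2, 52.0 and 47.5 CPM in MUCP1-FLAG, and its groups overlapped.

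MRPS36 had the most negative estimate, at 10.0, 10.5 and 10.6 CPM in the controls and 8.29, 9.45 and 8.26 CPM in MUCP1-FLAG. The groups lay apart, but at this low level the error was wide. The log2 fold change was −0.25 ± 0.11, with a 95% interval from −0.48 to −0.03 and an edgeR adjusted p of 0.124. GENCODE lists 5 pseudogenes under its name. The members nearest to a call as lower were MRPS5 and MRPL42, named here after their values were seen. MRPS5 had 89.5, 90.2 and 89.6 CPM in the controls and 82.1, 81.5 and 80.8 CPM in MUCP1-FLAG, groups apart by far more than their spread (log2 fold change −0.14 ± 0.05, edgeR adjusted p 0.0691). For MRPL42 the values were 58.7, 66.0 and 65.6 CPM against 53.5, 60.0 and 55.0 CPM, which overlap (−0.17 ± 0.06, edgeR adjusted p 0.0728, or 0.0127 with LV-NC 1 left out). With library totals in place of TMM both were called lower, at an edgeR adjusted p of 0.0404 for MRPS5 and 0.0498 for MRPL42.

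Although the assembled ribosome holds most of these proteins as a single copy, their transcripts differed widely in level. Compared per length, in FPKM, the mean over 6 libraries ran from 7.29 for MRPS36 to 223 for MRPS6, a span of 30.6-fold, or of 28.7-fold from MRPS21 once MRPS36 is set aside as no ribosomal protein. The median was 40.9 FPKM, 43.3 for MRPL and 38.2 for MRPS genes, beside 10.6 for all tested genes. MRPS6, MRPL3, MRPS22 and MRPL51 exceeded 100 FPKM. MRPL3, a protein near the catalytic centre, had 204 ± 6.06 FPKM in LV-NC and 194 ± 8.16 in MUCP1-FLAG (SD, n = 3 per group), MRPS22 145 ± 4.48 and 151 ± 5.73, and MRPL51 120 ± 7.23 and 127 ± 12.6. For these 3 the values of the groups overlapped. In LV-NC, MRPL3 stood above MRPS6, which had 185 ± 3.05 FPKM. In MUCP1-FLAG, MRPS6 led with 261 ± 6.53 FPKM. At the other end, MRPL50 had 9.98 ± 0.336 and 9.76 ± 0.297 FPKM, MRPL44 15.1 ± 0.771 and 14.2 ± 0.791, and MRPS21 8.18 ± 0.453 and 7.37 ± 0.592. The order of the 78 genes was nearly the same in both groups, with Spearman's rho of 0.989 across genes, which are not independent replicates and share their libraries and lengths.

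**Figure D4:**
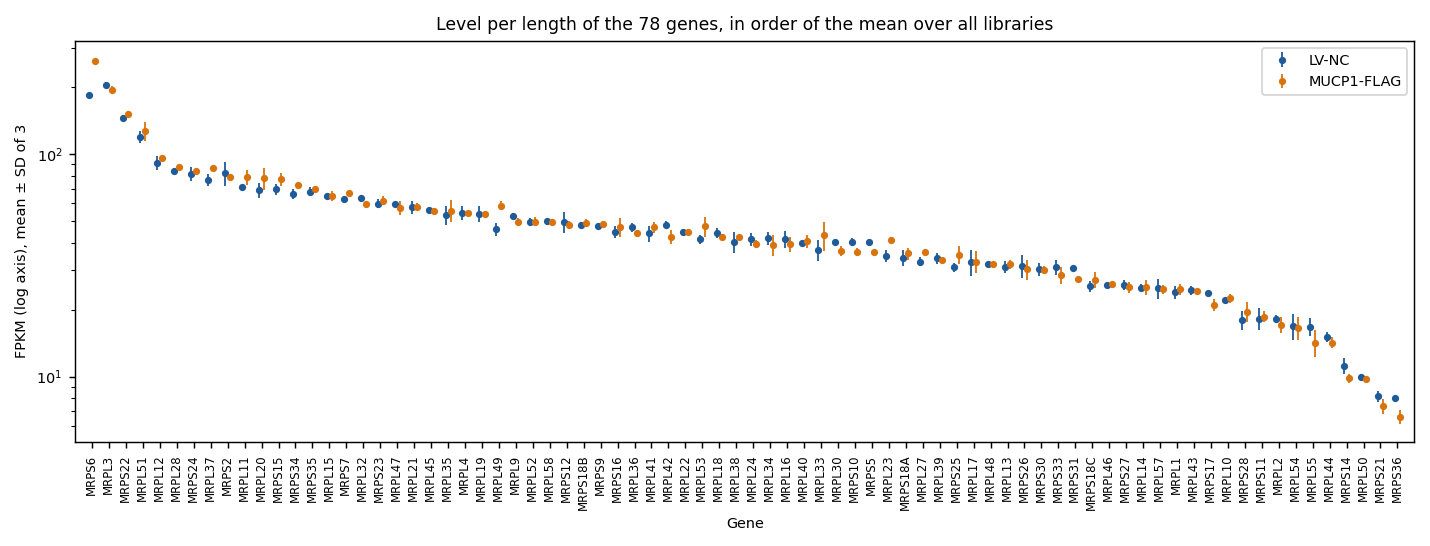
Mean FPKM ± SD of 3 libraries (vertical log axis) for each of the 78 genes in LV-NC (blue) and MUCP1-FLAG (orange), in order of the mean over all libraries. The points of both groups lie close together for nearly every gene, from MRPS36 near 7 to MRPL3 near 200, and part visibly for MRPS6 at the left end.

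Levels of single members carry limits from the annotation. Of the 78 genes 38 overlap another coding gene in GENCODE 29, and 34 share exon bases with one, 13 of them on the same strand. No strand setting is stated, so reads of genes that overlap on opposite strands may also be mixed. Pseudogenes are listed under the names of 34 members, 75 in all and up to 8 for one, MRPS21. The sources used here do not say how reads shared with such copies were counted. The length implied by count and FPKM varied between libraries by a median of 0.577% and by over 5% for 7 members.

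A feature of some members that the rule did not use lay in windows around the gene starts. Windows of 250 bases before to 50 after the RefSeq start were listed for 70 of the 78 genes, and 3 motifs of factors known to drive nuclear genes for mitochondria were searched on both strands. Matches were counted as the exact letters. The ETS motif CCGGAAG, bound by GABPA and its relatives, occurred in 30 of the 70, or 42.9%, against 22.5% of 10299 tested genes with a window and 12.2% of all 27305 genes listed. The YY1 motif, which is AAGATGG followed by CGG, occurred in 13, or 18.6%, against 3.24% and 1.46%. Its core AAGATGG, which the longer motif contains, was in 34.3% of members against 9.34% of tested genes. The NRF1 motif, which is GC followed by the core GCATGCGC, was found in 1 member, MRPL17, or 1.43% against 2.61%, and its core in 8.57% against 6.26%. These shares are descriptions of letters in a window and carry no test.

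**Figure D5:**
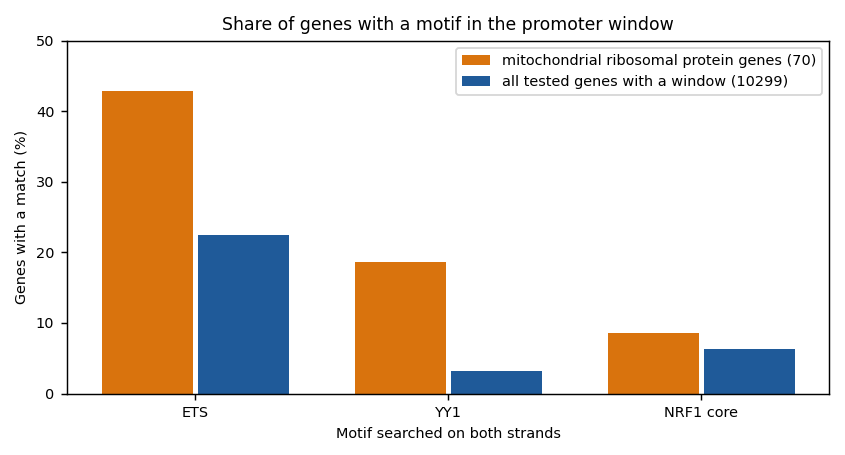
Share of genes (vertical axis, percent) with a match in the promoter window for the ETS motif, the YY1 motif and the NRF1 core, in 70 mitochondrial ribosomal protein genes (orange) and 10299 tested genes with a window (blue). The bars of the members are the higher ones for ETS (42.9% against 22.5%) and YY1 (18.6% against 3.24%), and the pair is close for the NRF1 core.

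The matches to the YY1 motif are printed because of their like place. Of 13 matches 11 run in the direction of the gene, and 10 begin 7 to 36 bases after its start. Those 10 thus lie in transcribed sequence, and the motif holds ATG, the letters of a start codon. Whether their place follows from the coding sequence was not tested. Each line gives 30 bases on the strand of the gene from GRCh38.p14, 5′ to 3′, with the motif in capitals.
MRPS24: cgcttggcccAAGATGGCGGcctccgtgtg
MRPS18B: ggcgtacgtcAAGATGGCGGcgtctgtatt
MRPL42: ggattgaaacAAGATGGCGGgttcgtggtg
MRPL22: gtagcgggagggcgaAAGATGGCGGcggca
MRPL38: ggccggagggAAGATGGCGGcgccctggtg
MRPS10: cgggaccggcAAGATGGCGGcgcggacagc
MRPS18A: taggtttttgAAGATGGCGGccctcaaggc
MRPS30: atcgcgggcaAAGATGGCGGcggccaggtg
MRPL46: gggagaacgaAAGATGGCGGcgcccgtaag
MRPL50: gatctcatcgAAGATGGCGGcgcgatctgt
The other 3 matches, all before the start, belong to MRPL32, MRPL36 and MRPL52. As examples of position, the MRPS24 line is chr7:43869479-43869508 (− strand) and the MRPL42 line chr12:93467512-93467541 (+ strand). With all 6 libraries and TMM scaling none of the 13 was called by edgeR, nor was any by DESeq2 or limma (2, MRPL42 and MRPS10, were lower at an unadjusted p under 0.05 by edgeR). The background is 16.1% of all tested genes called by edgeR, and 14.7% lower at an unadjusted p under 0.05. MRPL42 was called lower with library totals, and both MRPL42 and MRPS10 with LV-NC 1 left out. The 13 had a median log2 fold change of 0.02, beside 0.01 for the 57 without it.

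Of 40 ETS matches 22 lie in the 50 bases before the start and 6 after the start. The lines below show the motif in the 3 highest members that hold it, MRPL3, MRPS22 and MRPL51. MRPS22 carries the motif and, 1 base on, its reverse complement.
MRPL3: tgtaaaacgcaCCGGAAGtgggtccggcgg
MRPS22: tctataagggcCCGGAAGacttccggccct
MRPL51: cggcaggcggaCCGGAAGcactgaggcggg
They come from chr3:131502985-131503014 (− strand), chr3:139343896-139343925 (+ strand) and chr12:6493348-6493377 (− strand). The median log2 fold change was 0.02 for the 30 members with an ETS match and 0.00432 for the 40 without. The called MRPS6, MRPL49 and MRPL37 had no match to either motif in these windows, though MRPL49 held the core AAGATGG, and MRPL23 had no window listed.

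Head-to-head neighbours were another trait, found in a part of the members. Of the 78 members 17, or 21.8%, start within 1000 bases of a coding gene that runs the other way, against 9.67% of 12870 tested coding genes. One such pair holds 2 members, MRPS11 and MRPL46, whose starts lie 34 bases apart, with log2 fold changes of 0.05 ± 0.08 and 0.04 ± 0.07. MRPL47 and MRPL36 are paired with complex I subunits, NDUFB5 at 36 bases (0.07 ± 0.06) and NDUFS6 at 34 bases (0.07 ± 0.06). Called partners were found beside 2 of the 17 members, where the background is 16.1% of all tested genes called. The partner of MRPL10 was not tested, and none of the 17 was called itself. MRPL27 and EME1, 6 bases apart, had 0.16 ± 0.07 and 0.30 ± 0.11 (edgeR adjusted p 0.157 and 0.0704). SKA3, a kinetochore gene 43 bases from MRPL57, rose by 0.28 ± 0.06 (edgeR adjusted p 0.00178), while MRPL57 itself had 0.01 ± 0.07. TCP1, a chaperonin subunit 63 bases from MRPL18, rose by 0.13 ± 0.04 (edgeR adjusted p 0.0488), while MRPL18 had −0.04 ± 0.07. The differences between partners were not tested.

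Of 99 tested genes in 6 further lists on mitochondrial translation and gene expression 3 were called higher and 3 lower by edgeR, or 6.06% in all beside the background of 16.1%, and the interval lay within 1.25-fold for 82.8%. Of 5 ribosomal proteins with other symbols 1 was higher, PTCD3, a pentatricopeptide protein of the small subunit, with 87.1, 86.2 and 95.3 CPM in the controls and 105, 102 and 99.8 CPM in MUCP1-FLAG (log2 fold change 0.19 ± 0.05, edgeR adjusted p 0.0193). The groups lay apart, but on log2(FPKM + 1) the change was 0.09, with a limma adjusted p of 0.931. The FPKM values of PTCD3 did not follow its CPM. They were 33.62, 38.52 and 92.89 in the controls and 79.77, 42.08 and 43.75 in MUCP1-FLAG. With LV-NC 2 left out the edgeR adjusted p of PTCD3 was 0.130, and with MUCP1-FLAG 1, 2 or 3 left out 0.0962, 0.0671 and 0.0619. AURKAIP1 missed the threshold, at 0.17 ± 0.06 (0.0511), and DAP3, CHCHD1 and GADD45GIP1 had 0.09 ± 0.05, 0.08 ± 0.11 and 0.01 ± 0.07.

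None of 27 assembly factors of the ribosome was called by edgeR, DESeq2 or limma (4 at an unadjusted p under 0.05 by edgeR). The median log2 fold change of the 27 was −0.03. The background is 16.1% of all tested genes called by edgeR and 29.4% at an unadjusted p under 0.05. The rRNA methyltransferase MRM2 came nearest, at 0.15 ± 0.06 (edgeR adjusted p 0.0695, or 0.0198 with LV-NC 1 left out). Of 18 translation factors 1 rose and 1 fell, with a median of −0.02. C12orf65, a release-factor-like protein that rescues stalled ribosomes, had 16.0, 17.2 and 17.3 CPM in the controls and 20.8, 20.3 and 21.1 CPM in MUCP1-FLAG (0.30 ± 0.08, edgeR adjusted p 0.0151, or 0.0719 with MUCP1-FLAG 3 left out). The initiation factor MTIF3 fell, from 27.1, 28.2 and 26.6 CPM to 24.1, 23.1 and 23.3 CPM (−0.22 ± 0.07, edgeR adjusted p 0.0466). In both genes the groups were clear of each other. The MTIF3 call ended with LV-NC 1 or 2 left out (0.0511 and 0.195), with MUCP1-FLAG 1, 2 or 3 left out (0.0749, 0.152 and 0.138), without a low-count filter (0.0624) and with DESeq2 (0.128).

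Among 22 mitochondrial aminoacyl-tRNA synthetases and related enzymes, which charge tRNAs for this ribosome, 1 rose and 1 fell, with a median of 0.04. For this list and the next, the background is 16.1% of all tested genes called and 29.4% at an unadjusted p under 0.05 by edgeR. EARS2, for glutamate, had 0.22 ± 0.07 (edgeR adjusted p 0.0490) and VARS2, for valine, −0.24 ± 0.08 (0.0452). DESeq2 called neither (adjusted p 0.118 and 0.133). For EARS2 the edgeR adjusted p was 0.0584 and 0.180 with LV-NC 1 or 2 left out and 0.102, 0.221 and 0.0773 with MUCP1-FLAG 1, 2 or 3 left out, and on log2(FPKM + 1) the change was 0.02. For VARS2 it was 0.0763 and 0.158, then 0.128, 0.0663 and 0.140, with the same libraries left out in turn. None of 17 genes for maintenance of mitochondrial DNA and RNA was called by edgeR, DESeq2 or limma (3 at an unadjusted p under 0.05 by edgeR). HSD17B10, a subunit of the mitochondrial RNase P, came nearest, with 0.13 ± 0.06 (edgeR adjusted p 0.107, or 0.0455 with LV-NC 1 left out).

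Factors that act on nuclear genes for mitochondria had 1 of 10 tested called lower and 0 higher, with a median of −0.03. The shares over all tested genes were 7.71% lower and 8.35% higher. MYC fell, from 519, 525 and 483 CPM in the controls to 445, 456 and 444 CPM (a log2 change of −0.18 ± 0.04, with an edgeR adjusted p of 0.0071, 0.0747 with LV-NC 2 left out and 0.0519 with MUCP1-FLAG 3 left out). NRF1 had a log2 fold change of 0.04 ± 0.08, GABPA of −0.06 ± 0.07 and YY1 of −0.07 ± 0.05. None of these 3 passed the test. The coactivator PPARGC1A was scarce, at 0.472 CPM in the controls and 0.756 CPM in MUCP1-FLAG on average.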

How the data were processed

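The 6 libraries of SW480 cells were compared, 3 LV-NC and 3 MUCP1-FLAG, grouped by their titles. The authors deposited whole-number counts and FPKM per gene, with mean FPKM per group, a log2 fold change, and a p-value and adjusted p-value of their own comparison, per the file headers. Recalculation showed that the deposited log2 value is the log2 ratio of mean FPKM. Tools named in the submitters' processing notes are HISAT2, featureCounts, fastp and DESeq2, with GRCh38 as the build. The sources used here do not state versions, strand setting or the test behind the deposited p-values.

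Counts were tested with edgeR 4.0.16 (R 4.3.3), using its robust quasi-likelihood test, TMM scaling and filterByExpr (minimum count 10), over 12920 genes with Benjamini-Hochberg adjustment and a threshold of 0.05. Standard errors and 95% intervals were worked out from each log2 fold change and its test statistic. The script was tested on simulated counts. Alternatives were DESeq2 1.42.0, RLE factors, library totals, other filters, limma 3.58.1 on log2(FPKM + 1) or log2(FPKM + 0.1), left-out libraries and the replicate number as a block. The members and lists were chosen with earlier results of these data known. Named were all called members, the 2 with the smallest p in each role group without a call, the 2 highest and 2 lowest of each subunit in FPKM, the MRPS18 genes, MRPS36, MRPS30 and MRPL12, and from each companion list up to 3 called genes or the 1 with the smallest p. Genes grouped by place in the ribosome, neighbouring genes and other list members were added later. Role groups follow the systematic names in RefSeq, except for MRPS24, MRPS28 and MRPS36, which have none there and were placed from general knowledge. Gene positions come from GENCODE 29 and promoter windows from RefSeq on GRCh38.p14.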

Additional observations from a re-analysis of the deposited data

How the results depend on the processing

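MRPS6 and MRPL49 kept their call in all 14 alternatives, with log2 fold changes of 0.49 to 0.53 and 0.29 to 0.40. The number of members higher, 4, became 6 without a low-count filter and 3 with DESeq2, library totals or limma, and ran from 2 to 6 when single libraries were left out. The number lower, 0, became 2 with library totals (1 MRPL, 1 MRPS) and ran from 0 to 2 without single libraries. MRPL genes called higher ran from 1 to 3 and lower from 0 to 1 without single libraries, and MRPS genes from 1 to 3 and from 0 to 1. MRPS genes called higher were 2 without the low-count filter. Over the companion lists 3 genes were higher and 3 lower. The higher count was 1 with limma on log2(FPKM + 1) and on log2(FPKM + 0.1), and 0 to 5 without single libraries. The lower count was 1 with DESeq2, 1 without the low-count filter, 1 with the replicate block, and 0 to 4 without single libraries. For the changed counts the cause was not tested. MRPL37 had a limma adjusted p of 0.0673 and 0.0661, and MRPL23 an edgeR adjusted p of 0.0534 with library totals. The estimate of MRPS30, 0.0165, turned to −0.000919 with library totals and to −0.000527 and −0.000505 with limma on log2(FPKM + 1) and log2(FPKM + 0.1), and ran from −0.0134 to 0.0774 with single libraries left out. That of MRPL50, −0.0177, ran from −0.0453 to 0.0119 with single libraries left out. Neither gene was called in any alternative.

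Same-numbered libraries of the groups did not deviate together (correlations of 0.0351, 0.0498 and 0.00239 across genes), so no pairing was visible in the levels. Whether they were prepared together is not given by the labels. With the replicate block the members called were again 4 higher and 0 lower. The median of all genes moved by less than 0.1 on the log2 scale under every scaling. The median of the members, 0.0169, turned to −0.000616 with library totals, where all genes had −0.0216. It was −0.00562 with LV-NC 3 left out and −0.00542 with MUCP1-FLAG 2 left out. In the other alternatives it was positive, from 0.00136 to 0.0404. Among the members, MRPL54 and MRPL55 had the largest standard errors, 0.12 each on the log2 scale.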

Other observations

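Within groups, many members shared the library in which they were lowest. In LV-NC, replicate 3 was the lowest of the 3 for 46 of the 78 genes and replicate 2 for 12. In MUCP1-FLAG, replicate 1 was the lowest for 44 and replicate 2 the highest for 49. Such counts were not made over all tested genes. Whether they belong to these genes or to the libraries as a whole was not tested. The summed share of the 78 genes in all counts was 0.441% in LV-NC replicate 3 and 0.470% in MUCP1-FLAG replicate 2, the extremes of the 6 libraries.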
